A study of Mus with 12 samples.

Results

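The solute carrier (Slc) genes encode the largest group of membrane transporters, and m6A peaks on their transcripts were examined in the livers of HFD and WT mice. Members were taken by gene name alone. A gene was included when its name was Slc followed by a family number, letters and a member number, and when at least 1 of the 6 m6A peak lists held a peak for it. This gave 129 genes of the 7906 genes with a peak, with 694 of 68562 peaks. Of the 129 genes, 125 encode transporters of 40 families. The names of the other 4 match without their products being transporters. These are Slc4a1ap, an adaptor protein, Slc7a6os, a gene named for lying opposite a transporter gene, and Slc9a3r1 and Slc9a3r2, scaffold proteins that bind a sodium-proton exchanger. Genes of the organic anion transporter family Slco were not included.

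HFD mice received a diet with 60% of the energy from fat and WT mice a low-fat diet with 10% of the energy from fat, each for 12 weeks. All were male C57BL/6J mice that were 6 weeks old at the start, with 3 livers in each group, named HFD 1 to HFD 3 and WT 1 to WT 3. WT is the name of the diet control here, and both groups have the same genotype. The peaks came from MeRIP-seq. Fragments of mRNA are precipitated with an m6A antibody, and peaks are called where they pile up above the input. Because the diet label of all 12 samples, inputs and controls included, is the high-fat one, the titles were used to tell the groups apart.

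Solute carriers move sugars, amino acids, fatty acids, bile acids, nucleotides, vitamins and ions across membranes, and a family number joins genes with related sequence. In hepatocytes they take up bile acids and glucose at the blood side, exchange metabolites across the inner mitochondrial membrane and supply nucleotide sugars to the Golgi. m6A is written on mRNA by a methyltransferase complex and is read by proteins that act on splicing, stability and translation. A MeRIP peak depends on the level of the transcript and on sequencing depth as well as on methylation, and in whole liver a smaller number of cells of a type cannot be told apart from less RNA per cell. No expression values were used here.

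The 6 lists held between 10109 and 12966 peaks in between 5296 and 6430 genes. The number of reads per library is unknown here. All listed peaks had a fold enrichment of at least 2.0, which is the authors' ratio of immunoprecipitate to input and is not scaled between libraries. The lists also hold a false discovery rate without a unit, which was read as a percent from its range. Its median over the Slc peaks was 82.5%, 100% and 100% in HFD 1 to HFD 3 and 100%, 100% and 68.9% in WT 1 to WT 3. Its median over all peaks is not given here. The listed p-value score, minus 10 times the log10 of p, had medians of 162 to 216 for Slc peaks. For all peaks the medians were 213 to 266. WT 2 and WT 3 stood apart by their genes. Of 26 skeletal muscle genes, 2 had a peak in each of the 3 HFD lists, with summed fold enrichment from 18.6 to 62.4. In the WT lists 2 had a peak in WT 1, 16 in WT 2 and 18 in WT 3, with sums of 94.0, 1001 and 1630. Ckm, Atp2a1, Mylpf and Actn3, which also define muscle, had no peak in any list. The part of muscle RNA in the Slc results was not tested. Of 9 hepatocyte markers, 4 had a peak, namely Apob, Apoa1, Ttr and Slc10a1, and between 2 and 3 had one in each library. Apob had a peak in all 3 HFD livers and in no WT liver. Alb and Cps1, which hepatocytes express strongly, had none. Of 8 leukocyte markers, 2 had a peak, with summed fold enrichment of 15.8, 13.6 and 11.5 in HFD 1 to HFD 3 and none in WT livers, among them Ptprc in all 3 HFD livers. Of 7 adipocyte markers, 1 had a peak in HFD 2 and 2 had a peak in WT 3, where 1 of 5 erythroid and 1 of 5 pancreatic acinar markers also had one. The part of these cells in the Slc results was not tested.

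The number of Slc genes with an m6A peak differed between HFD and WT livers by less than the spread between mice. HFD 1, HFD 2 and HFD 3 had peaks in 105, 88 and 72 Slc genes, against 85, 80 and 100 Slc genes in WT 1, WT 2 and WT 3. Both the highest and the lowest number were in HFD livers. The mean was 88.3 ± 16.5 genes in HFD livers and 88.3 ± 10.4 genes in WT livers (SD, n = 3 each), a difference of 0 (two-sided exact permutation test, p = 1, where 3 against 3 cannot give a p below 0.1). The longest lists also held the most Slc genes. In lists cut to the 10109 peaks with the smallest p-values, the numbers were 86, 75 and 71 Slc genes in HFD livers and 85, 77 and 81 in WT livers (difference -3.67, exact permutation p = 0.5). Slc genes made up 1.63%, 1.49% and 1.36% of the genes with a peak in HFD 1 to HFD 3, and 1.6%, 1.5% and 1.56% in WT 1 to WT 3. The share differed by -0.06 percentage points (exact permutation p = 0.6), and this difference was 0.0060 without HFD 3. HFD livers had 151, 118 and 94 Slc peaks and WT livers 102, 98 and 131 Slc peaks, a difference of 10.7 peaks (exact permutation p = 0.7) that was -4.33 without HFD 1. Without WT 2 and WT 3, the lists with the most muscle genes, the difference in Slc genes was 3.33.

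**Figure D1:**
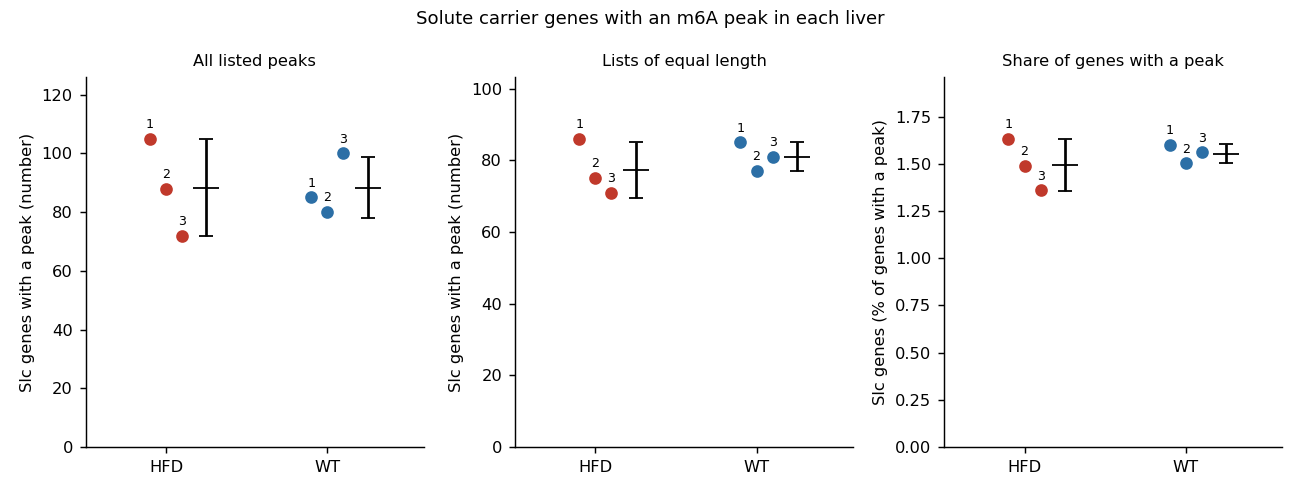
Slc genes with an m6A peak in each HFD liver (red) and WT liver (blue), as the number in the full lists (left), the number in lists of 10109 peaks (middle) and the percentage of all genes with a peak (right). Numbers beside the points name the mouse, and bars give the mean ± SD of 3 livers. The HFD livers span 72 to 105 genes and enclose all WT livers in the left panel.

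Peaks from different livers that shared at least 1 base were joined into a region, which gave 206 regions in Slc genes out of 18374 in all. Positions refer to the mouse build GRCm38. Of the 206 regions, 205 lay within the annotated bounds of their own gene, and the exception was that of Slc25a37, the mitochondrial iron carrier mitoferrin 1, at chr14:69463411-69465011. The lists give no strand, exon or sequence, so whether a region lies in a coding part or an untranslated part is not given here.

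Slc transcripts ranged from those with an m6A peak in every liver to those with a peak in one. A peak was found in all 6 livers for 53 of the 129 Slc genes (41.1%) and in a single liver for 27 (20.9%), against 49.2% and 14.1% of all genes with a peak. Of the Slc regions, 50 (24.3%) had a peak in all 6 livers and 60 (29.1%) in a single liver, against 34% and 23.7% of all regions. Most Slc genes had 1 region. More than 1 region was found in 47 Slc genes (36.4%), against 52.2% of all genes, and the mean was 1.6 regions per Slc gene and 2.33 regions per gene over all genes. The 27 genes of a single liver were spread unevenly, with 11 in HFD 1, 4 in HFD 2 and 0 in HFD 3, and 3 in WT 1, 1 in WT 2 and 8 in WT 3. HFD 1 and WT 3 had the longest lists.

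The strongest Slc region belonged to Slc35b2, which carries the sulfate donor PAPS into the Golgi, at chr17:45566309-45567669. Its fold enrichment was 55.6, 72.0 and 82.0 in HFD 1 to HFD 3, against 84.8, 83.0 and 75.7 in WT 1 to WT 3. The groups overlapped, and HFD 1 was the lowest of the 6 livers. Slc45a4, a putative proton-coupled sugar transporter, followed with 50.7, 41.4 and 23.2 in HFD livers and 24.8, 26.2 and 29.3 in WT livers at chr15:73605442-73606076. Here HFD 1 and HFD 2 lay above all WT livers and HFD 3 below them. Slc15a3, which exports peptides and histidine from lysosomes, had 35.2, 22.6 and 34.4 in HFD livers and 31.97, 37.3 and 27.4 in WT livers at chr19:10842544-10843578. The HFD and WT values overlapped.

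**Figure D2:**
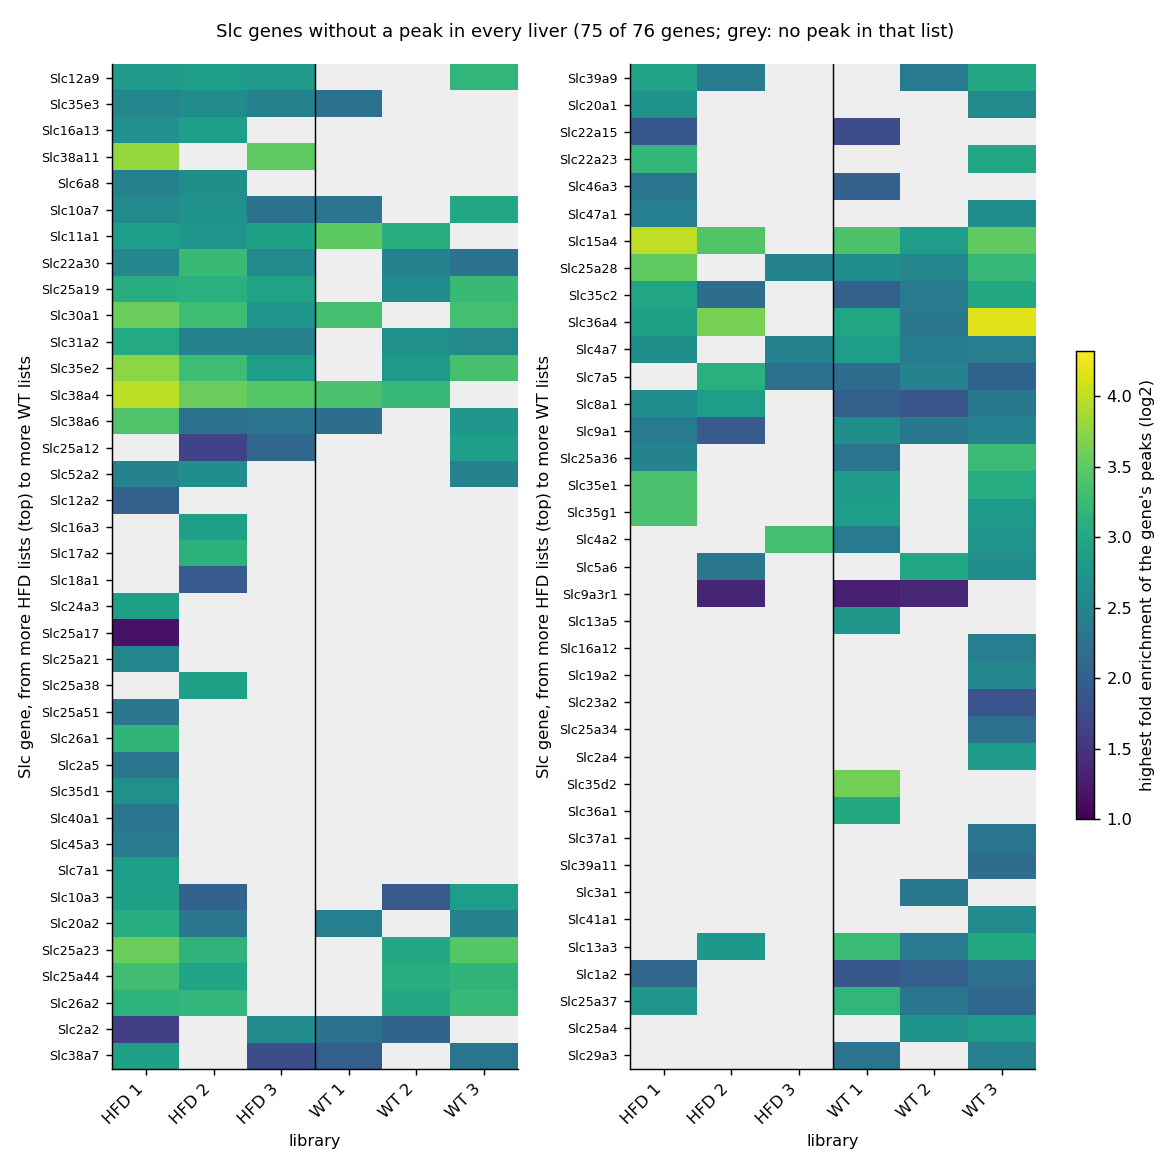
Highest log2 fold enrichment of each gene's peaks in each liver for 75 of the 76 Slc genes that lack a peak in at least 1 liver, with HFD livers left of the line and WT livers right of it. Grey marks a liver without a listed peak, and genes run from those found in more HFD lists to those found in more WT lists. No row is filled in all 3 livers of one group and empty in the other.

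By gene, m6A detection was balanced between the diets. Of the 129 Slc genes, 31 had a peak in more HFD lists, 31 in more WT lists and 67 in as many of both, against 1802, 1401 and 4703 of all 7906 genes. No Slc gene had a peak in all 3 HFD livers and in no WT liver, where the background was 0.721% of all genes, and none had a peak in all 3 WT livers and in no HFD liver, where it was 0.19% of all genes. Both counts of 0 are near these backgrounds. Leaving out a library asks for fewer peaks, and the share of all genes rises with it. The count for HFD livers alone was 2 without HFD 3 (2.02% of all genes), and 1 without HFD 2 (1.27%), WT 1 (1.16%) or WT 3 (2.11%). The count for WT livers alone was 2 without HFD 1 (0.886% of all genes), and 1 without HFD 2 (0.475%), WT 1 (1.37%) or WT 2 (0.69%). When 2 livers of a group were enough, 3 Slc genes were found in HFD livers only (background 2.97% of all genes) and 2 in WT livers only (background 2.04% of all genes).

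The 3 genes of the HFD side were Slc16a13, Slc38a11 and Slc6a8. Slc16a13, a monocarboxylate transporter, had fold enrichments of 6.41 in HFD 1 and 7.33 in HFD 2. Slc38a11, a member of the sodium-coupled neutral amino acid transporters, had 13.9 in HFD 1 and 11.3 in HFD 3. Slc6a8, the creatine transporter, had 5.49 in HFD 1 and 6.32 in HFD 2. The 2 genes of the WT side were Slc25a4 and Slc29a3. Slc29a3, a lysosomal nucleoside transporter, had 4.55 in WT 1 and 5.43 in WT 3 in the same region. Slc25a4, which encodes the ADP/ATP carrier of heart and skeletal muscle mitochondria, had 6.54 in WT 2 and 7.16 in WT 3, at chr8:46207153-46207620. Those are the livers whose lists held 16 and 18 of the 26 muscle genes, and the part of muscle RNA in the Slc25a4 peaks was not tested. Slc2a4, the insulin-responsive glucose transporter of muscle and fat, had a peak in WT 3 alone, with 7.17.

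By region, 1 Slc region was found in all 3 HFD livers and in no WT liver (background 0.718% of all regions), and 1 in all 3 WT livers and in no HFD liver (background 0.294% of all regions). Both shares of the 206 Slc regions are near the background. The HFD region lay in Slc25a22, a mitochondrial glutamate carrier, at chr7:141437555-141437686, with fold enrichments of 3.07, 2.32 and 2.27 in HFD 1 to HFD 3. These values are close to the lowest fold enrichment in the lists. The other region of Slc25a22 had a peak in HFD 1, HFD 2 and all WT livers, with 4.68 and 4.34 in HFD livers and 5.91, 4.75 and 5.45 in WT livers. The WT region lay in Slc1a2, which takes up glutamate, at chr2:102788370-102790784, with 3.75, 4.04 and 4.68 in WT 1 to WT 3. Slc1a2 had a further region with 4.26 in HFD 1 and 4.52 in WT 3. Neither gene was thus found in one diet alone.

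These counts of regions moved with the lists. With lists of equal length there were 2 HFD regions (0.591% of all regions) and 2 WT regions (0.572% of all regions). The HFD count was 6 without WT 3 (2.02% of all regions), 4 without HFD 3 (2.58%), and 3 without HFD 2 (1.5%), WT 1 (1.26%) or WT 2 (1.13%). The WT count was 3 without HFD 2 (0.746% of all regions) or WT 2 (0.922%), and 2 without HFD 1 (0.933%) or WT 1 (1.85%). When 2 livers were enough, 6 Slc regions were found in HFD livers only (background 3.96%) and 4 in WT livers only (background 2.74%). A region lay in more HFD than WT lists for 74 of the 206 Slc regions, in more WT lists for 50 and in as many of both for 82, against 5493, 4257 and 8624 of all regions. All 3 HFD lists and 1 WT list held 9 Slc regions, against 381 of all regions. Of these 9, the WT value lay below all HFD values in Slc12a7, Slc16a5, Slc35b3, Slc35e3 and Slc4a1ap. It lay inside the HFD range in Slc10a7, Slc31a2 and Slc43a3, and above it in Slc12a9. All 3 WT lists and 1 HFD list held 3 Slc regions, against 249 of all regions. These 3 lay in Slc39a8, Slc13a3 and Slc25a37. In Slc13a3 and Slc25a37 the HFD value, 6.80 and 6.70, lay inside the WT range.

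The strength of m6A peaks was compared in the 50 Slc regions found in all 6 livers, with limma on the log2 fold enrichment after each library was centred on its median, fitted over all 6245 such regions. No Slc region differed between HFD and WT livers at an adjusted p under 0.05 (limma, Benjamini-Hochberg over all regions), and the background was 0 (0% of 6245 regions). Of the 50 Slc regions, 3 had an unadjusted p under 0.05, where the background was 4.84% of all regions. The log2 difference was above 0 in 18 Slc regions and below 0 in 32, with a median of -0.05, against 2928, 3317 and a median of -0.02 over all regions. As deposited, the HFD values lay wholly above the WT values in 3 Slc regions of 50 (background 4.64%) and wholly below them in 2 (background 3.68%). After centring these counts were 2 (background 4.48%) and 1 (background 5.09%).

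**Figure D3:**
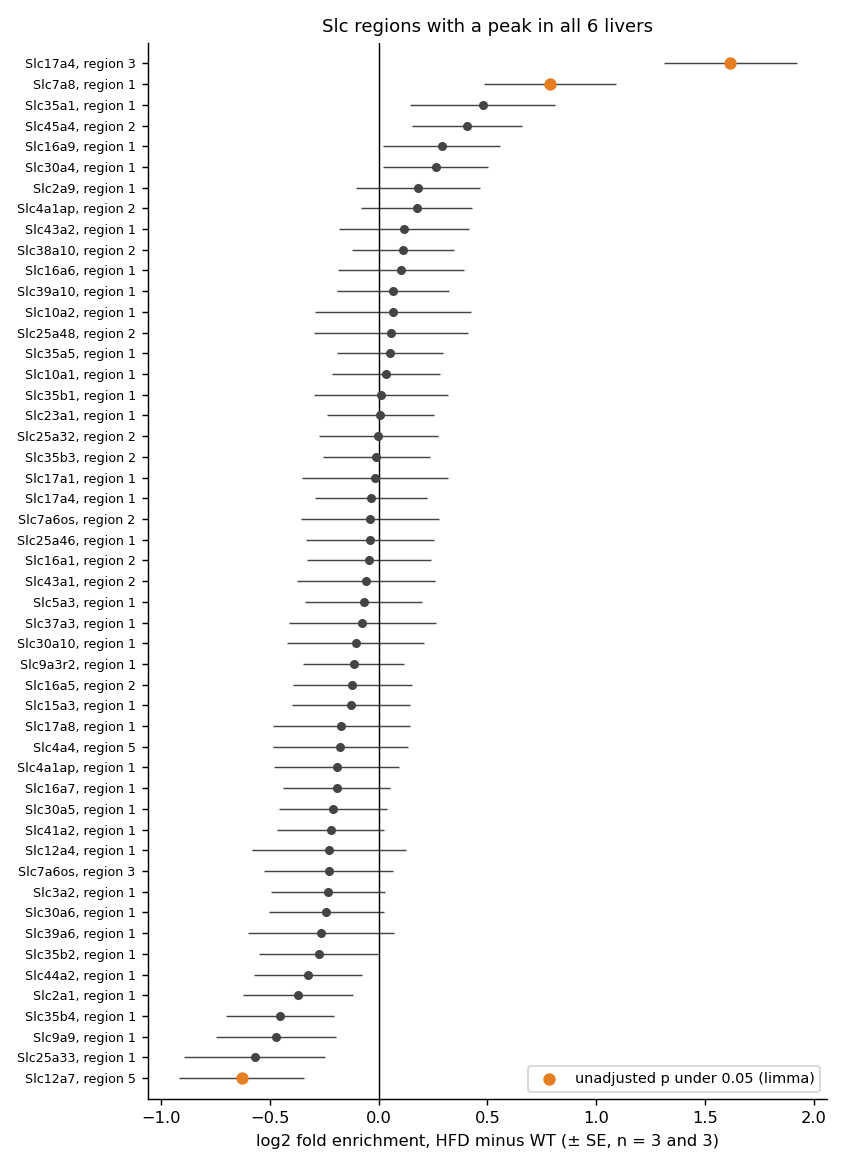
Difference in log2 fold enrichment, HFD minus WT, for the 50 Slc regions found in all 6 livers, with bars of ± 1 SE from limma (n = 3 and 3). Orange points mark the 3 regions with an unadjusted p under 0.05, and none of the 50 passed the adjusted threshold. The values run from -0.63 for Slc12a7 to 1.62 for Slc17a4.

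The largest difference was in region 3 of Slc17a4, an organic anion transporter of the sodium-phosphate family, at chr13:23914926-23915007. Its fold enrichment was 24.3, 16.97 and 9.02 in HFD 1 to HFD 3, against 5.56, 3.69 and 5.77 in WT 1 to WT 3. All HFD livers lay above all WT livers, although the HFD livers differed among themselves by more than the WT livers did. The mean was 16.8 ± 7.65 in HFD livers and 5.01 ± 1.15 in WT livers (SD, n = 3 each), a log2 difference of 1.62 (SE 0.306). This region had the smallest p of all 6245 regions and its adjusted p was 0.448 (limma), so it did not pass. Over 12 alternatives its log2 difference stayed between 1.38 and 1.92 and its adjusted p between 0.0634 and 0.99984 (limma). Region 2 of the gene, at chr13:23908766-23908883, had 13.1, 11.2 and 8.99 in HFD livers and 5.56 in WT 1 and 4.55 in WT 3, with no peak in WT 2. The listed values did not overlap, and the region was not among those fitted, which had a peak in all 6 livers. Region 1 of Slc17a4, at the other end of the gene at chr13:23897738-23898909, had 18.96, 14.04 and 13.1 in HFD livers and 11.4, 13.3 and 22.6 in WT livers. Its log2 difference was -0.04, and the difference between the regions was not tested.

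Slc17a4 lies beside its relatives Slc17a1, Slc17a2 and Slc17a3 on chromosome 13. Reads of such related genes can be shared between copies, and whether this affected values within the cluster was not tested. Slc17a1, a urate and organic anion transporter of hepatocytes, had 10.1, 5.66 and 12.3 in HFD livers and 9.90, 9.57 and 7.05 in WT livers. Slc17a2 had a peak in HFD 2 alone, with 8.81. Slc17a3 had a region with 7.69, 4.68 and 5.04 in HFD livers and 4.42 in WT 2 and 6.67 in WT 3, and a further region with 5.21 in WT 1 and 6.27 in WT 3. The values of Slc17a1 and Slc17a3 overlapped between the diets.

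**Figure D4:**
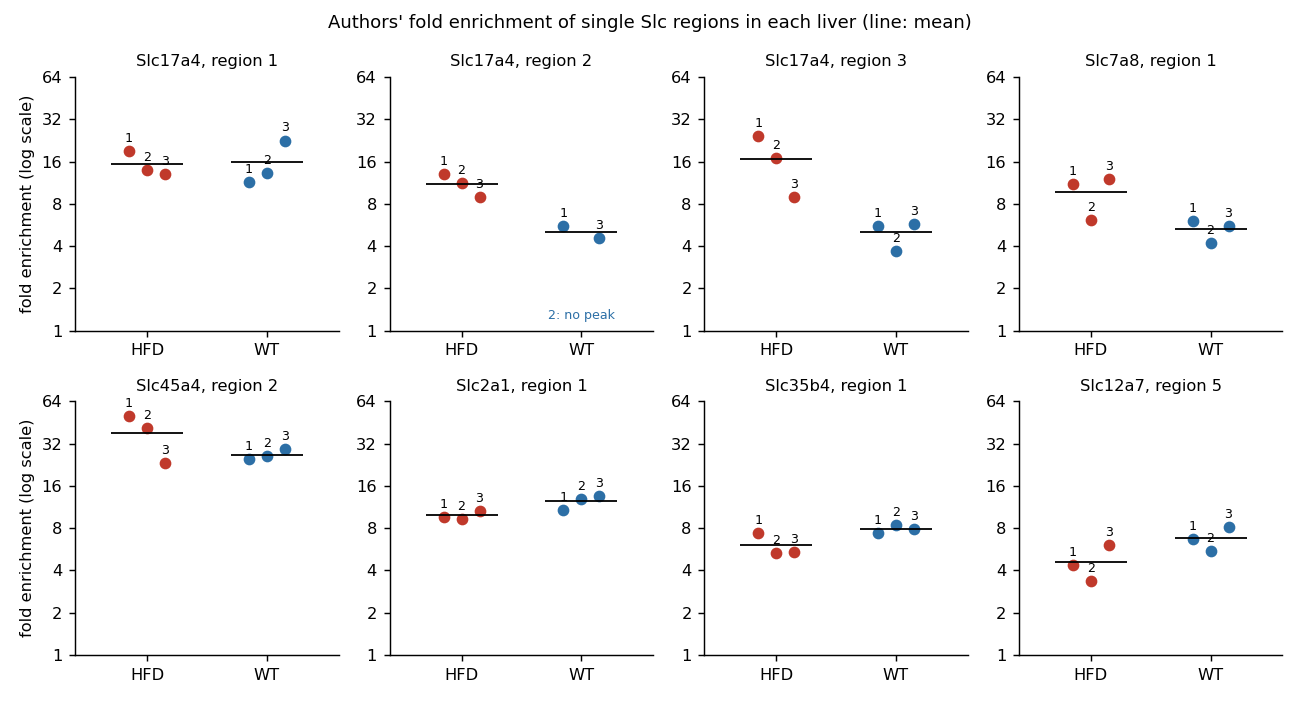
Authors' fold enrichment (log axis) of 8 Slc regions in each HFD liver (red, left) and WT liver (blue, right), with the mouse number beside each point and a line at the mean. HFD and WT livers do not overlap in regions 2 and 3 of Slc17a4, in Slc7a8, in Slc2a1 and in Slc35b4, and region 2 of Slc17a4 has no peak in WT 2.

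Amino acid and peptide transporters were the most numerous class, with 19 genes, of which 7 had a peak in all 6 livers. More HFD lists held a peak for 5 of them, more WT lists for 6, and 8 were even. Slc7a8, the exchanger LAT2 of neutral amino acids, had 11.1, 6.12 and 11.98 in HFD livers, against 6.08, 4.24 and 5.59 in WT livers. As deposited the groups did not overlap, while after centring HFD 2 fell below WT 1 and they did. The log2 difference after centring of 0.79 (SE 0.304) had an unadjusted p of 0.0213 and an adjusted p of 0.969 (limma). Slc3a2, the heavy chain that brings LAT2 and its relatives to the cell surface, had 7.91, 9.70 and 8.63 in HFD livers and 8.81, 8.34 and 13.4 in WT livers. Its values overlapped between the diets. Slc43a2, the exporter LAT4 of neutral amino acids, had 12.3, 8.16 and 4.80 in HFD livers and 6.27, 8.34 and 6.63 in WT livers. Slc43a1, the related LAT3, had 5.46, 8.07 and 9.06 in HFD livers and 9.63, 5.47 and 7.79 in WT livers. Slc38a10 had values from 5.10 to 6.57 in HFD livers and from 4.45 to 6.61 in WT livers. None of these separated HFD from WT livers. Slc38a4, a sodium-coupled transporter of neutral and cationic amino acids that is abundant in liver, had 15.8, 11.8 and 10.8 in HFD livers, 10.3 in WT 1 and 9.36 in WT 2, and no peak in WT 3.

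Mitochondrial carriers of family 25 came next, with 18 genes, of which 5 had a peak in all 6 livers. These carriers pass nucleotides, amino acids and cofactors through the inner membrane. Slc25a46, which acts in mitochondrial fission and fusion at the outer membrane, was the strongest, with 22.7, 14.6 and 9.09 in HFD livers and 17.7, 13.5 and 12.6 in WT livers. Slc25a33, a pyrimidine nucleotide carrier, had 5.27, 11.02 and 8.90 in HFD livers and 11.8, 12.03 and 10.9 in WT livers. HFD 2 lay within the WT values and the other HFD livers lay below them, with a log2 difference of -0.57 (SE 0.324). Slc25a32, a carrier of folate and flavin, had 6.66, 9.91 and 6.33 in HFD livers and 5.91, 7.73 and 8.39 in WT livers. Slc25a48 had 15.9, 5.60 and 5.44 in HFD livers and 5.15, 8.99 and 8.53 in WT livers, so that HFD 1 was the highest and the other HFD livers lay inside the WT range. By detection, 6 of the 18 genes were in more HFD lists and 5 in more WT lists.

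Of the 14 inorganic ion exchangers, 4 had a peak in all 6 livers, although the class had the most regions, 35, of which 4 were in all 6. Slc12a7, a potassium-chloride cotransporter, and Slc4a4, a sodium bicarbonate cotransporter, each had 7 regions, the most of any Slc gene together with Slc30a9. The fifth region of Slc12a7, at chr13:73808985-73809185, had 4.35, 3.37 and 6.11 in HFD livers, against 6.72, 5.50 and 8.20 in WT livers. Each HFD liver had a lower value than 2 or 3 WT livers, and the log2 difference of -0.63 (SE 0.287) had an unadjusted p of 0.0455 and an adjusted p of 0.999 (limma). The first region of Slc12a7 leaned the other way, with 12.4, 9.41 and 8.37 in HFD livers and 6.74 in WT 1 alone. Slc4a4 had 6.35, 5.99 and 10.4 in HFD livers and 9.48, 7.07 and 7.80 in WT livers in the region found in all livers. Slc9a9, an endosomal sodium-proton exchanger, had 21.2, 13.6 and 13.3 in HFD livers and 29.7, 16.5 and 19.2 in WT livers, with overlap through HFD 1. Slc12a4, another potassium-chloride cotransporter, had 9.44, 5.35 and 11.8 in HFD livers and 6.31, 8.61 and 16.1 in WT livers.

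The class of nucleotide sugar transporters, family 35, numbered 13 genes, of which 6 had a peak in all 6 livers. It follows the family number and so also holds carriers of PAPS, ATP and ADP. Slc35b4, which supplies UDP-xylose and UDP-N-acetylglucosamine, had 7.37, 5.32 and 5.39 in HFD livers, against 7.41, 8.48 and 7.92 in WT livers. The groups did not overlap, but HFD 1 and WT 1 were almost equal, and the log2 difference of -0.46 (SE 0.248) had an adjusted p of 0.999 (limma). Slc35a1, which brings CMP-sialic acid into the Golgi, had 13.5, 22.7 and 19.02 in HFD livers and 12.7, 17.4 and 8.93 in WT livers. Slc35b1, an exchanger of ATP and ADP in the endoplasmic reticulum, had 11.7, 21.6 and 18.3 in HFD livers and 18.1, 16.8 and 13.6 in WT livers. Slc35b3, a second PAPS transporter, had 9.86, 11.1 and 7.90 in HFD livers and 8.92, 8.35 and 10.9 in WT livers. These 3 genes overlapped between the diets. A further region of Slc35b3 had 11.5, 11.8 and 10.7 in HFD livers and a single WT value, 8.12 in WT 2.

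Of the 11 zinc transporters, 8 had a peak in all 6 livers and 9 were found in as many HFD as WT lists. Members of family 30 move zinc or manganese out of the cytosol, and members of family 39 bring metals in. Slc30a4, which loads zinc into vesicles, had 11.7, 9.86 and 10.3 in HFD livers, against 8.81, 7.62 and 9.43 in WT livers. The groups did not overlap, and the log2 difference after centring was 0.26 (SE 0.242), with an adjusted p of 0.999 (limma). Slc30a5 and Slc30a6, which form a zinc transporter of the early secretory pathway, overlapped between the diets. Slc30a5 had 10.3, 9.25 and 8.03 in HFD livers and 10.4, 10.9 and 9.60 in WT livers, and Slc30a6 had 9.10, 5.83 and 4.86 in HFD livers and 6.23, 6.25 and 10 in WT livers. Slc39a6, a zinc importer, had 11.9, 13.4 and 4.66 in HFD livers and 9.21, 8.33 and 15.4 in WT livers, with HFD 3 the lowest. Slc30a10, a manganese exporter of liver, had 12.2, 7.01 and 4.45 in HFD livers and 5.85, 9.40 and 7.91 in WT livers. Slc30a9, a mitochondrial zinc transporter, had 7 regions and none in all 6 livers, although each liver had a peak for the gene. Slc39a8, an importer of zinc and manganese, also had a peak in each liver but at different places. Regions only 6 bases apart had 17.8 in HFD 3 and 33.5 in WT 1 in the one, and 9.20 in HFD 1, 9.17 in HFD 2 and 12.3 in WT 2 in the other. The third region of Slc39a8 leaned to the WT side, with 5.21 in HFD 2 as its only HFD value. It had 7.12, 8.73 and 12.2 in WT 1 to WT 3.

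Sugar transporters numbered 11 genes, of which 5 had a peak in all 6 livers. This class follows family numbers and so holds Slc5a3, a myo-inositol transporter, and Slc5a6, a vitamin transporter. Slc2a1, the glucose transporter GLUT1, had 9.59, 9.33 and 10.6 in HFD livers, against 10.8, 12.9 and 13.5 in WT livers. As deposited the groups did not overlap, while after centring they did, and the log2 difference of -0.37 (SE 0.251) had an adjusted p of 0.999 (limma). Slc2a2, the main glucose transporter of hepatocytes, had 3.06 in HFD 1 and 6.07 in HFD 3, and 4.76 in WT 1 and 4.18 in WT 2, with no peak in the other livers. Slc2a9, a urate transporter, had 8.20, 6.91 and 9.27 in HFD livers and 5.98, 8.73 and 6.31 in WT livers. Slc5a3 had 24.4, 26.1 and 11.8 in HFD livers and 17.7, 18.9 and 23.6 in WT livers, and the HFD livers lay on both sides of the WT livers. Slc45a4 had a log2 difference of 0.41 (SE 0.253, limma) in its strongest region, in which the groups overlapped. Slc2a5, a fructose transporter, had a peak in HFD 1 alone, with 4.88.

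Monocarboxylate transporters, which move lactate, pyruvate, ketone bodies and related acids, numbered 8 genes, of which 5 had a peak in all 6 livers. Slc16a1, the lactate transporter MCT1, had 7.54, 7.89 and 11.1 in HFD livers and 9.66, 7.41 and 9.23 in WT livers. Slc16a7, the related MCT2, had 16.6, 12.6 and 11.4 in HFD livers and 17.4, 11.6 and 16.2 in WT livers. Slc16a9 had 15.6, 13.3 and 10.8 in HFD livers and 7.99, 13.6 and 10.3 in WT livers, and Slc16a6 had 13.8, 7.56 and 5.58 in HFD livers and 8.34, 7.07 and 7.33 in WT livers. All of them overlapped between the diets. A further region of Slc16a5 had 11.1, 7.64 and 9.27 in HFD livers and a single WT value, 6.45 in WT 3.

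Family 10, which holds the bile acid carriers, had 4 genes with a peak, namely Slc10a1, Slc10a2, Slc10a3 and Slc10a7. This class follows the family number and not the substrate of each member. Slc10a1, the sodium-dependent bile acid importer NTCP of the hepatocyte surface, had 12.9, 8.56 and 8.15 in HFD livers and 9.40, 8.49 and 9.65 in WT livers at chr12:80953185-80953780. Slc10a2, the bile acid importer of intestine and bile ducts, had 10.4, 12.8 and 15.3 in HFD livers and 8.51, 20.3 and 9.44 in WT livers at chr8:5085623-5086283. Both overlapped between the diets, and WT 2 had the highest value of Slc10a2. Among the other classes, Slc23a1, the ascorbate transporter SVCT1, had 19.9, 22.1 and 14.7 in HFD livers and 20.8, 16.5 and 16.9 in WT livers. Slc44a2, a choline transporter-like protein, had 4.81, 5.97 and 3.88 in HFD livers and 6.13, 5.59 and 5.84 in WT livers. Slc41a2, a magnesium transporter, had 4.71, 5.66 and 5.23 in HFD livers and 5.93, 5.47 and 6.21 in WT livers. Slc17a8, the vesicular glutamate transporter VGLUT3, had 12.4, 5.16 and 5.58 in HFD livers and 6.77, 5.88 and 11.7 in WT livers. None of these 4 genes separated HFD from WT livers. Of the 4 members that are not transporters, Slc9a3r2 had 13.6, 12.3 and 11.6 in HFD livers and 12.7, 11.2 and 15.9 in WT livers. Slc4a1ap had 4 regions, and the strongest had 10.5, 14.3 and 17.2 in HFD livers and 12.9, 16.6 and 16.5 in WT livers. Slc7a6os had 13.3, 24.7 and 21.8 in HFD livers and 21.2, 12.9 and 25.9 in WT livers. Slc9a3r1, whose peaks were among the weakest, had 2.53 in HFD 2 and 2.43 and 2.55 in WT 1 and WT 2.

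Of 20 transporters that hepatocytes are known for, 8 (40%) had a peak, against 34.6% of all protein-coding genes. Slc10a1, Slc16a1, Slc17a1 and Slc30a10 had a peak in all 6 livers. Slc38a4 had a peak in 5 livers and Slc2a2 in 4. Slc13a5, a citrate importer, had 6.78 in WT 1 alone, and Slc40a1, the iron exporter ferroportin, had 4.91 in HFD 1 alone. Those without a peak in any of the 6 lists included the organic anion transporter Slc22a7, the mitochondrial carriers Slc25a13, Slc25a15 and Slc25a20, the fatty acid transport proteins Slc27a2 and Slc27a5, the nucleoside transporter Slc29a1, the glucose 6-phosphate transporter Slc37a4, and Slc38a3, Slc39a14 and Slc7a2.

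Among all annotated protein-coding Slc genes, without the 4 that do not encode transporters, 127 of 369 (34.4%) had a peak in at least 1 list. This compares with 7570 of 21900 protein-coding genes (34.6%). The 127 include Slc66a1 and Slc49a4, which the lists give under older names and which are not among the 129. Families differed widely. Slc27, the fatty acid transport proteins, had a peak in 0 of 6 annotated genes, Slc28 in 0 of 4, Slc6 in 1 of 21 and Slc22, the organic ion transporters, in 3 of 25. At the other end, Slc43 had a peak in 3 of 3 genes, Slc30 in 6 of 10, Slc16 in 8 of 14, Slc10 in 4 of 7 and Slc35 in 13 of 27. In all, 42 of 50 annotated families had at least 1 gene with a peak. These counts describe which transcripts were listed, and the level of each transcript was not available to set beside them.

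The peaks on Slc transcripts were long. Their median length was between 640 and 730 bases in the 6 lists, against 253 to 307 bases for the peaks of all other genes in the same lists. Peaks under 200 bases made up 21.5% of the Slc peaks and 39.9% of all peaks, and peaks of 1000 bases or more made up 28.7% and 19.7%. The same measure was 144.5 to 327 bases for the 6 Slco genes, 138 to 204.5 bases for 23 ABC transporter genes, 118 to 197 bases for 31 ATPase pump genes and 830 to 1064 bases for 23 channel genes. Long peaks were thus seen in channel genes too, and not in the other transporter sets. HFD and WT livers did not overlap in the median length of Slc peaks, which was 669 ± 25.5 bases in HFD livers and 706 ± 21.0 bases in WT livers (SD, n = 3 each). The exact permutation p of 0.1 is the smallest that 3 against 3 can give. Slc peaks were also a little weaker than the middle of their lists. The median Slc peak ranked at the 43.5th to 47.5th percentile of fold enrichment in the HFD lists and at the 41.3rd to 48.9th in the WT lists.

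**Figure D5:**
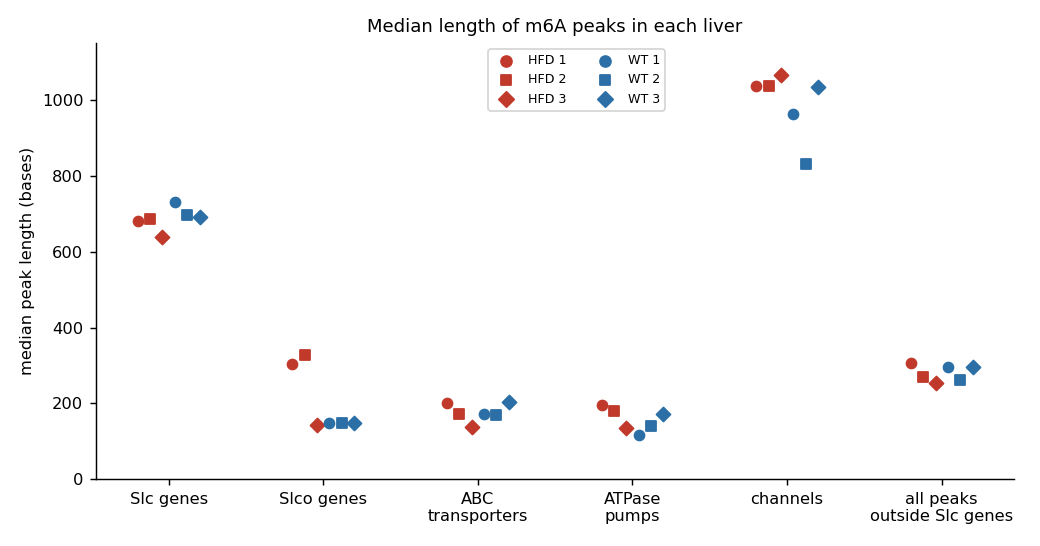
Median length of m6A peaks in bases for Slc genes, 4 other sets of transport genes and all peaks outside Slc genes, with 1 point per HFD liver (red, left in each set) and WT liver (blue, right). Slc peaks had medians of 640 to 730 bases, and only the channel genes had longer ones, from 830 to 1064 bases.

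The Slc regions lay near gene ends more often than regions in general. Of 203 Slc regions that could be placed, 54.7% had their centre within 10% of the gene's length from one of its ends, against 40.3% of 17833 regions over all genes. The median distance to the nearer end was 2467 bases for Slc regions and 4701 bases for all regions. The ends are those of the annotated gene with introns included, and which end is the start is not given here. Strong regions, of which some are named here, did not share a place. Those of Slc15a3 and Slc9a9 and region 1 of Slc17a4 had their centre within 10% of the gene's length from an end. Region 3 of Slc17a4, which was weak in WT livers, also did. The strong regions of Slc45a4, Slc5a3 and Slc23a1 lay farther inside the gene. The region of Slc35b2 also fell outside the 10%, but its gene is only 3759 bases long. Its centre was 682 bases from the nearer end.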

How the data were processed

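The m6A peak lists of 6 mouse livers were used, and the 6 input samples were not. Per the submitters' notes, bcl2fastq 2.17, Trimmomatic 0.33, Bowtie 1.1.2 and MACS2 2.1.0 were used, and a human genome build is named, while the positions match the mouse build GRCm38. The authors called peaks for each liver against its input. The deposited fold enrichment is a ratio, the p-value a score of minus 10 times its log10 (at least 50), and the false discovery rate a percent; none is scaled between libraries, and no read counts were used. Overlapping peaks (1 base or more) formed a region. Values per liver were tested by exact permutation, two-sided, and regions found in all 6 lists with limma 3.58.1 in R 4.3.3, on log2 fold enrichment centred on each library's median, with a trended variance. Each list is from 1 mouse. Gene positions came from the RefSeq annotation, in which all 129 gene IDs were found.

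Members and lists were chosen with earlier results of these data known. Genes were named by a rule: those found in all 3 lists of a group and in no list from the other diet, the 10 per direction with the smallest limma p, up to 4 per class with the strongest region in all 6 lists, a list of liver transporters, Slc genes in the paper's tables, and the 5 with the most regions. Others were named after their values were seen. Alternatives were stricter peaks (fold enrichment not under their list's median), lists of 10109 peaks, an overlap of 0.5 of the shorter peak, no centring, quantile normalization, a pseudocount of 1, the mean in place of the highest peak of a region, a filter on low fold enrichment, Slco genes added, a replicate block and each library left out. Added after seeing the data were transporters only, leaving out WT 2 and WT 3, and joining peaks up to 100 bases apart. Some named genes are not reported here.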

Additional observations from a re-analysis of the deposited data

How the results depend on the processing

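With stricter peaks the difference in the share of Slc genes, HFD minus WT, turned to 0.0149 percentage points, and there were 4 HFD-only and 0 WT-only Slc regions (0.874% and 0.281% of all regions). Lists of equal length gave 2 HFD-only regions (0.591% of all), 2 WT-only regions (0.572%) and 1 WT-only gene (0.438%). Stricter peaks left 9615 of the 18374 regions, and lists of equal length left 15916. The number of Slc regions among them is not given here. Asking for 2 livers of a group and none of the other gave 3 HFD-only and 2 WT-only genes (2.97% and 2.04% of all), and 6 HFD-only and 4 WT-only regions (3.96% and 2.74%). Leaving out each library in turn, the difference in Slc genes ran from -8.33 to 8.17, in Slc peaks from -4.33 (without HFD 1) to 24.2, and in the share from -0.131 to 0.0060 percentage points (above 0 without HFD 3). HFD-only genes then numbered 0 to 2, WT-only genes 0 to 2, HFD-only regions 1 to 6 and WT-only regions 1 to 3, since fewer libraries were asked for, against 1.11% to 2.11%, 0.373% to 1.37%, 1.13% to 2.58% and 0.65% to 1.85% of all. Among named regions, Slc43a2 ran from -0.12 (without HFD 1) to 0.38, with -0.0095 without WT 3, and Slc2a9 from -0.0047 (without HFD 3) to 0.40 on the log2 scale, and the cause was not tested. No Slc region passed limma at an adjusted p under 0.05 under any alternative, and the other 224 fitted values kept their direction and side of the threshold.

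The replicate numbers did not pair the livers, as deviations of same-numbered livers correlated at -0.04, 0.02 and -0.22. With the replicate block no Slc region was called, 3 Slc regions had an unadjusted p under 0.05, and the adjusted p of Slc17a4 was 0.762 (limma). The block changed no other call. Depth is unknown, so a missing peak sets no limit on methylation.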
